A study of Homo sapiens with 4 samples.

Results

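The genes described here encode proteins of blood coagulation, the complement system and the blood plasma. They are 44 of the 19970 protein-coding genes of chromosomes 1 to 22 and X, and they were taken from a list of names, drawn up with earlier results of these data known. A loop was assigned to a gene when 1 of its anchors, the paired stretches of the genome that a loop joins, overlapped the gene body or the 10 kb on either side, with genes placed by GENCODE 44 on GRCh38. The loops come from POLR2A HiChIP-seq of HepG2 cells, an established human hepatocellular carcinoma line. Cells were kept for 24 h with sterilized water (mock) or with 20 µM pyridostatin (PDS), a small molecule that binds G-quadruplexes (G4s), which are stacked structures of guanine-rich DNA. Each condition had 2 biological replicates, and their loops are deposited as 1 combined list per condition. All loop distances below are between anchor midpoints and not between start sites. Each loop carries a count of paired-end tags (PETs), read pairs that join its anchors after proximity ligation in intact nuclei and immunoprecipitation of POLR2A, the largest subunit of RNA polymerase II (RNAPII).

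Hepatocytes make most of the proteins that circulate in plasma. Coagulation is a cascade of proteases that ends with thrombin cutting fibrinogen into the fibrin of a clot, and anticoagulants and plasmin limit and dissolve it. Complement is another protease cascade, which tags microbes and opens pores in their membranes. Many of these genes are transcribed at high rates in hepatocytes under factors such as HNF1, HNF4 and C/EBP, and several lie side by side in clusters that arose by gene duplication.

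Across the genome 66417 loops were listed for mock and 18778 for PDS (ratio of PDS to mock 0.283, 95% interval 0.278 to 0.287), with 254647 and 67001 PETs (0.263, 0.261 to 0.265). Both lists start at 3 PETs, so their sums are not library depths. No library depth was used here, so fewer cells or shallower reads in a library and fewer contacts per cell cannot be told apart. A loop that is not listed may still have had up to 2 PETs. Since each condition has a single list, replicate spread could not be measured, no test between conditions was made, and intervals cover counting error only. All 8 hepatocyte marker loci held mock loops (94 loops in all), among them ALB and HNF4A. Of the leukocyte and erythroid markers reported, PTPRC and HBB held no loop in either list, while the window of CD3E held 4 mock loops. Of the endothelial markers KDR held none, and CDH5 and PECAM1 held 9 and 12. Such windows can also cover neighbouring genes, and loops are not expression.

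Promoters of 36 of the 44 genes were present in the RefSeq promoter table (GRCh38.p14, 250 bases before to 50 after the start site). Those of 5 genes are shown because loops at their start sites are described in detail. Fibrinogen chain genes FGB (chr4:154562730-154563029, plus strand) and FGA (chr4:154590693-154590992, minus strand) and the fetuin-A gene AHSG (chr3:186612810-186613109, plus strand) have promoters without a predicted G4. FN1, the fibronectin gene (chr2:215436019-215436318, minus strand), and CFB, the complement factor B gene (chr6:31945845-31946144, plus strand), have promoters with at least 1. Capitals mark the motifs searched on both strands, which are TATAAA (letters of a TATA box), GTTAAT (letters of an HNF1 half-site), TTGCNNAA (letters of a C/EBP site) and a predicted G4, taken as 4 stretches of 3 or more G set 1 to 7 bases apart. Each sequence reads 5′ to 3′ along the gene, so that a motif of the opposite strand appears as its complement.
FGB: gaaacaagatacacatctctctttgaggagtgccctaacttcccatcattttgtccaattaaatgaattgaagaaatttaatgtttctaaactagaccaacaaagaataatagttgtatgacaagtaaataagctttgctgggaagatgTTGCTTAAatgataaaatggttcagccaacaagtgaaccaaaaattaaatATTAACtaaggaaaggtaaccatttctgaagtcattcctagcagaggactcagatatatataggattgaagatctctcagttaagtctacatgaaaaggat
FGA: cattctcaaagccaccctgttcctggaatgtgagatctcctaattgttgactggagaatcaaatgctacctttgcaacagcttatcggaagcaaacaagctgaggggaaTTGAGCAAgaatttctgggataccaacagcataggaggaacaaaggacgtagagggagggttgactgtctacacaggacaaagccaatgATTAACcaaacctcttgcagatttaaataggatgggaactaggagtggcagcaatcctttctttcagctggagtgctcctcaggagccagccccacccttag
AHSG: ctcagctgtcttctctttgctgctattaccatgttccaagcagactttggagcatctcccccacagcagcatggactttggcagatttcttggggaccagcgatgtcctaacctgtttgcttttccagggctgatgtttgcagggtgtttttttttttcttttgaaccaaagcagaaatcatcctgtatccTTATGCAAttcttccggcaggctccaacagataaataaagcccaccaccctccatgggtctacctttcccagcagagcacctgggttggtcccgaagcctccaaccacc
FN1: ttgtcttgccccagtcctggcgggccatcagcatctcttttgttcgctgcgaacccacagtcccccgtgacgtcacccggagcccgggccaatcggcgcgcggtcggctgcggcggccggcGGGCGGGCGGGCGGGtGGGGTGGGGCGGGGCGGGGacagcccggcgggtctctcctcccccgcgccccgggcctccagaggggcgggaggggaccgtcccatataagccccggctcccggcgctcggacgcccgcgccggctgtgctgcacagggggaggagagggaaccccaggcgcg
CFB: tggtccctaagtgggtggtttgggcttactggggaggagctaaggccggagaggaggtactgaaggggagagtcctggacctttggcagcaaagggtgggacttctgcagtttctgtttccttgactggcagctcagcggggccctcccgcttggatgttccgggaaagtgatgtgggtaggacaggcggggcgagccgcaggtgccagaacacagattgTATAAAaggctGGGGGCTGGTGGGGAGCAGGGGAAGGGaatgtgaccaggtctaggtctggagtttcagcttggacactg

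In these windows FGB and FGA each held a GTTAAT and a TTGCNNAA match, AHSG held a TTGCNNAA match, and CFB held a TATAAA and a G4. Over the 36 promoters, GTTAAT occurred in 8 (22.2%, against 5.27% of 15315 coding promoters of the same length), namely those of C4BPA, CFI, F13B, F2, FGA, FGB, PLG and PROC. TTGCNNAA occurred in 8 (22.2% against 8.38%), namely AHSG, C6, FGA, FGB, HPX, KNG1, MBL2 and VTN. TATAAA occurred in 4 (11.1% against 9.64%), namely CFB, F13B, HRG and ORM1. A predicted G4 occurred in 6 (16.7% against 30.7%), namely CFB, F2, F7, FN1, ITIH3 and PROS1. The median GC content was 52.8% for the 36 promoters and 63.0% for all coding promoters, and no matching for GC content was made. A match describes the letters in the window and not the binding of a factor. For some genes the window is not at the gene start used for loops. That of TF (chr3:133661748-133662047) lies upstream of the gene, which begins at 133746040. Those of HRG, C8B, C9, F12, PROS1, VTN, HPX, ITIH1, C5 and FGG lie wholly inside their genes. So does that of CFB, printed above, whose gene begins at 31945650.

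In mock-treated cells 41 of the 44 genes (93.2%) had at least 1 loop, against 77.6% of all coding genes. In PDS-treated cells 24 (54.5%) had a loop, against 48.2% of all coding genes, and 12 (27.3%) had a loop found in both lists, against 25.2%. With the gene body alone, without the flanks, 37 of the 44 genes had a mock loop and 18 a PDS loop. The genes with their flanks held 208 loops in mock (787 PETs) and 41 in PDS (141 PETs). The ratio was 0.197 (0.141 to 0.275) for loops and 0.179 (0.15 to 0.214) for PETs, where the whole lists gave 0.283 and 0.263. The PET interval takes each PET as independent, which PETs of the same loop are not. The ratio of the whole lists differs between chromosomes, as set out with the copy-number grouping. Only the flanks were touched by 58 of the 208 mock loops (27.9%) and 14 of the 41 PDS loops (34.1%). The median gene of the 44 had 5.5 mock loops, against 3 over all coding genes, and 23 of them had at least 5. Scaled to the length of the window, the medians were 10.6 and 4.63 mock loops per 100 kb. The densest loci were AHSG with 35.3 mock loops per 100 kb, CFB with 34.1, FGG with 31.2, FGB with 30.2 and HP with 30.1.

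Of the 29 genes with at least 10 mock PETs, all 29 were at least 2-fold lower in the PDS list, and so were 92.7% of the 10041 coding genes with that many. Their median PDS/mock ratio of PETs was 0.15, against 0.193 over those coding genes. Of the 3 genes with at least 10 PDS PETs (FN1, HP and AHSG), 0 were at least 2-fold higher, against 0.746% of 2414 coding genes. The share of genes called lower was thus near that of all genes. Of the 41 genes with mock loops 18 had no PDS loop (43.9%, against 40.3% of the 15490 coding genes with mock loops), a share near that of all genes. They include FGA, TF, AMBP, ITIH2, ITIH3 and ITIH4. F9 and F11, which encode coagulation factors IX and XI, had no loop in either list. Only C6 and SERPINC1 had at least as many PDS as mock loops.

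**Figure D1:**
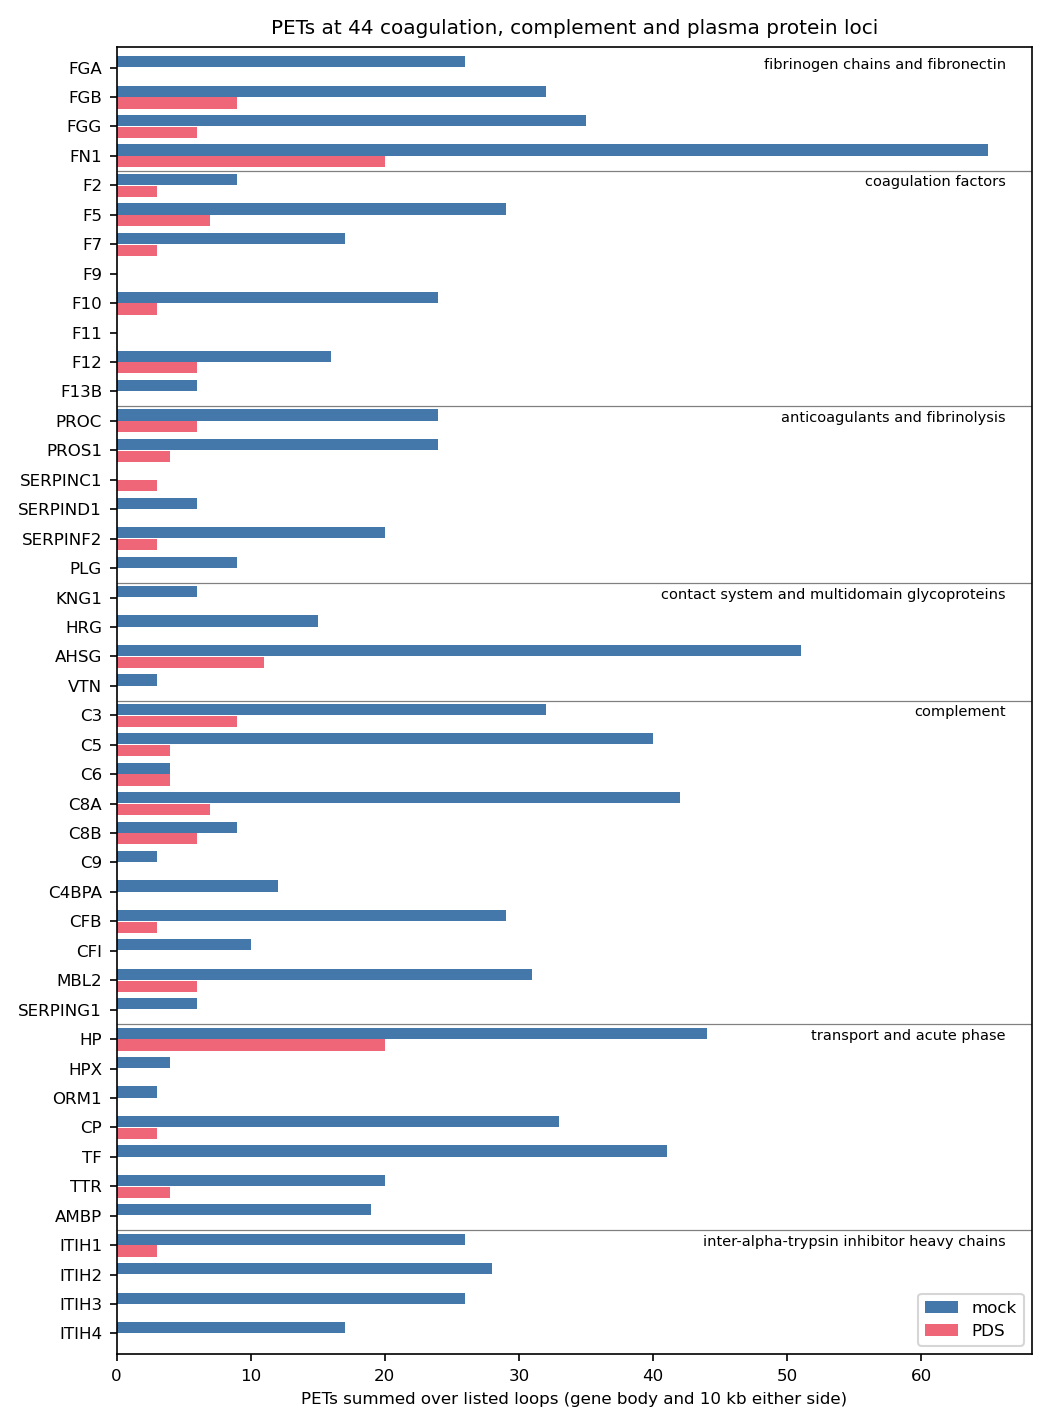
PETs summed over the loops at each of the 44 genes (horizontal axis, PETs) in the mock list (blue) and the PDS list (red), 1 combined list per condition and so no error bars, with genes grouped by role. FN1 had 65 mock PETs and HP 44, both had 20 PDS PETs, and 18 genes with mock PETs had no PDS bar.

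Most of the loops rested on few PETs. Of the 208 mock loops, 133 (63.9%) had 3 PETs, and 29 of the 41 PDS loops did. There were 20 loops in both lists, which is 9.62% of the mock loops and 48.8% of the PDS loops at these loci (11% and 39.1% over the whole lists). Of the 20, 14 had fewer PETs after PDS, 4 had the same number and 2 had more, and their sum went from 113 to 74 PETs. A mock loop with 3 PETs cannot have fewer in the PDS list and still be listed, and 5 of the 20 had 3. Among mock loops with 3 PETs, 5 of 133 (3.76%, 1.62 to 8.5) were also in the PDS list. Among those with at least 7 PETs, 4 of 8 were (95% interval 21.5 to 78.5%). The whole lists gave 5.97% and 43.1%, respectively, within the intervals of these loci.

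**Figure D2:**
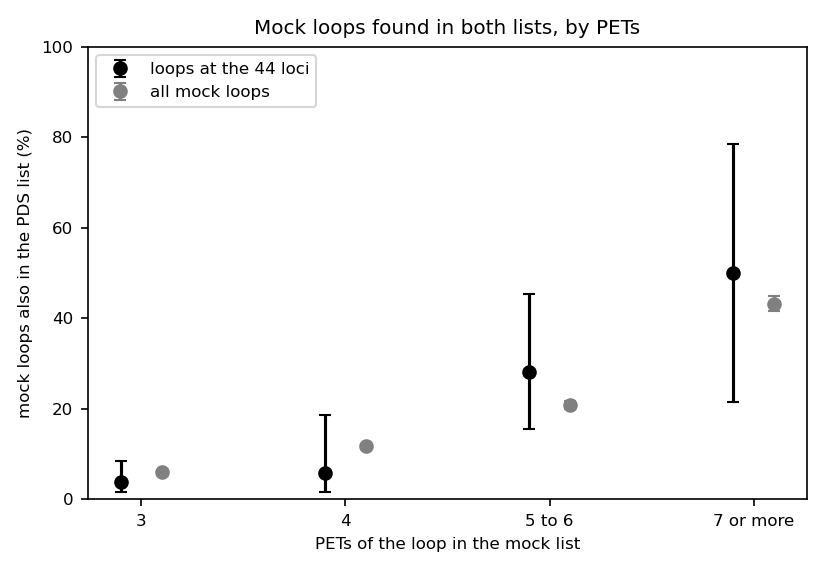
Share of mock loops also found in the PDS list (vertical axis, percent) by the number of PETs in the mock list (horizontal axis), for loops at the 44 loci (black) and all mock loops (grey), with 95% Wilson intervals. The share at the 44 loci was 3.76% at 3 PETs and reached 4 of 8 loops at 7 or more.

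Fibrinogen, a hexamer of paired alpha, beta and gamma chains, is encoded by FGA, FGB and FGG, which lie together on chromosome 4. These neighbours share loops, and the 3 loci together held 14 mock loops (52 PETs) and 3 PDS loops (9 PETs), all 3 found in both lists. By gene, FGB (chr4:154563011-154572807) had 9 loops in mock (32 PETs) and 3 in PDS (9 PETs). FGG had 9 in mock (35 PETs) and 2 in PDS (6 PETs). FGA (chr4:154583126-154590742) had 7 in mock (26 PETs) and no PDS loop. The loops in both lists reached the outer parts of the locus. The loop between the promoters of PLRG1, a pre-mRNA splicing factor, and LRAT, a retinol-esterifying enzyme, spans the whole cluster over 77.3 kb and had 6 mock and 3 PDS PETs. The anchors at the FGB start site and the LRAT promoter, with midpoints 60.2 kb apart, had 3 and 3. A loop of 15.4 kb from the PLRG1 promoter to the sequence beyond it had 4 and 3.

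Loops among the 3 genes themselves were in the mock list alone. The FGA start-site anchor was joined to an anchor inside FGG, 10.7 kb away, by 6 PETs. That anchor inside FGG was joined to an FGG start-site anchor, 10.5 kb away, by 5. The start-site anchors of FGA and FGG, with midpoints 21.2 kb apart, had 3 PETs. The PLRG1 promoter was joined to the FGB start site over 17.1 kb with 4 PETs and to the FGG start site over 68.2 kb with 3, also in mock alone. The FGB start-site anchor holds 1 predicted G4, on the minus strand at chr4:154559160-154559181, while none was found in the start-site anchor of FGA.

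FN1 encodes fibronectin, a glycoprotein of plasma and extracellular matrix that is crosslinked into clots. It held the most loops of the 44 genes (chr2:215360440-215436073), with 18 mock loops and 65 PETs against 6 PDS loops and 20 PETs. FN1 has 19 annotated start sites, and several loops joined start-site anchors to each other. A pair of these anchors 10.1 kb apart had 5 PETs in each list, and another 13.6 kb apart had 5 and 3. The anchor of the first start site, whose promoter is printed above with its G4s, was joined over 14.1 kb to an internal start site by 7 mock PETs and had no PDS loop. A loop of 6.4 kb from the same internal start site had 6 mock PETs and was not in the PDS list. Within ATIC, the neighbouring gene for a purine synthesis enzyme, a loop of 21.7 kb between start sites had 3 and 3 PETs. In the PDS list alone were loops of 3 PETs between FN1 and ATIC start sites (11.8 kb), between FN1 start sites (23.6 kb) and in the upstream flank (5.03 kb). For the 4 genes together the loops went from 32 to 9, a ratio of 0.281 (0.136 to 0.58), which spans that of the whole lists.

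**Figure D3:**
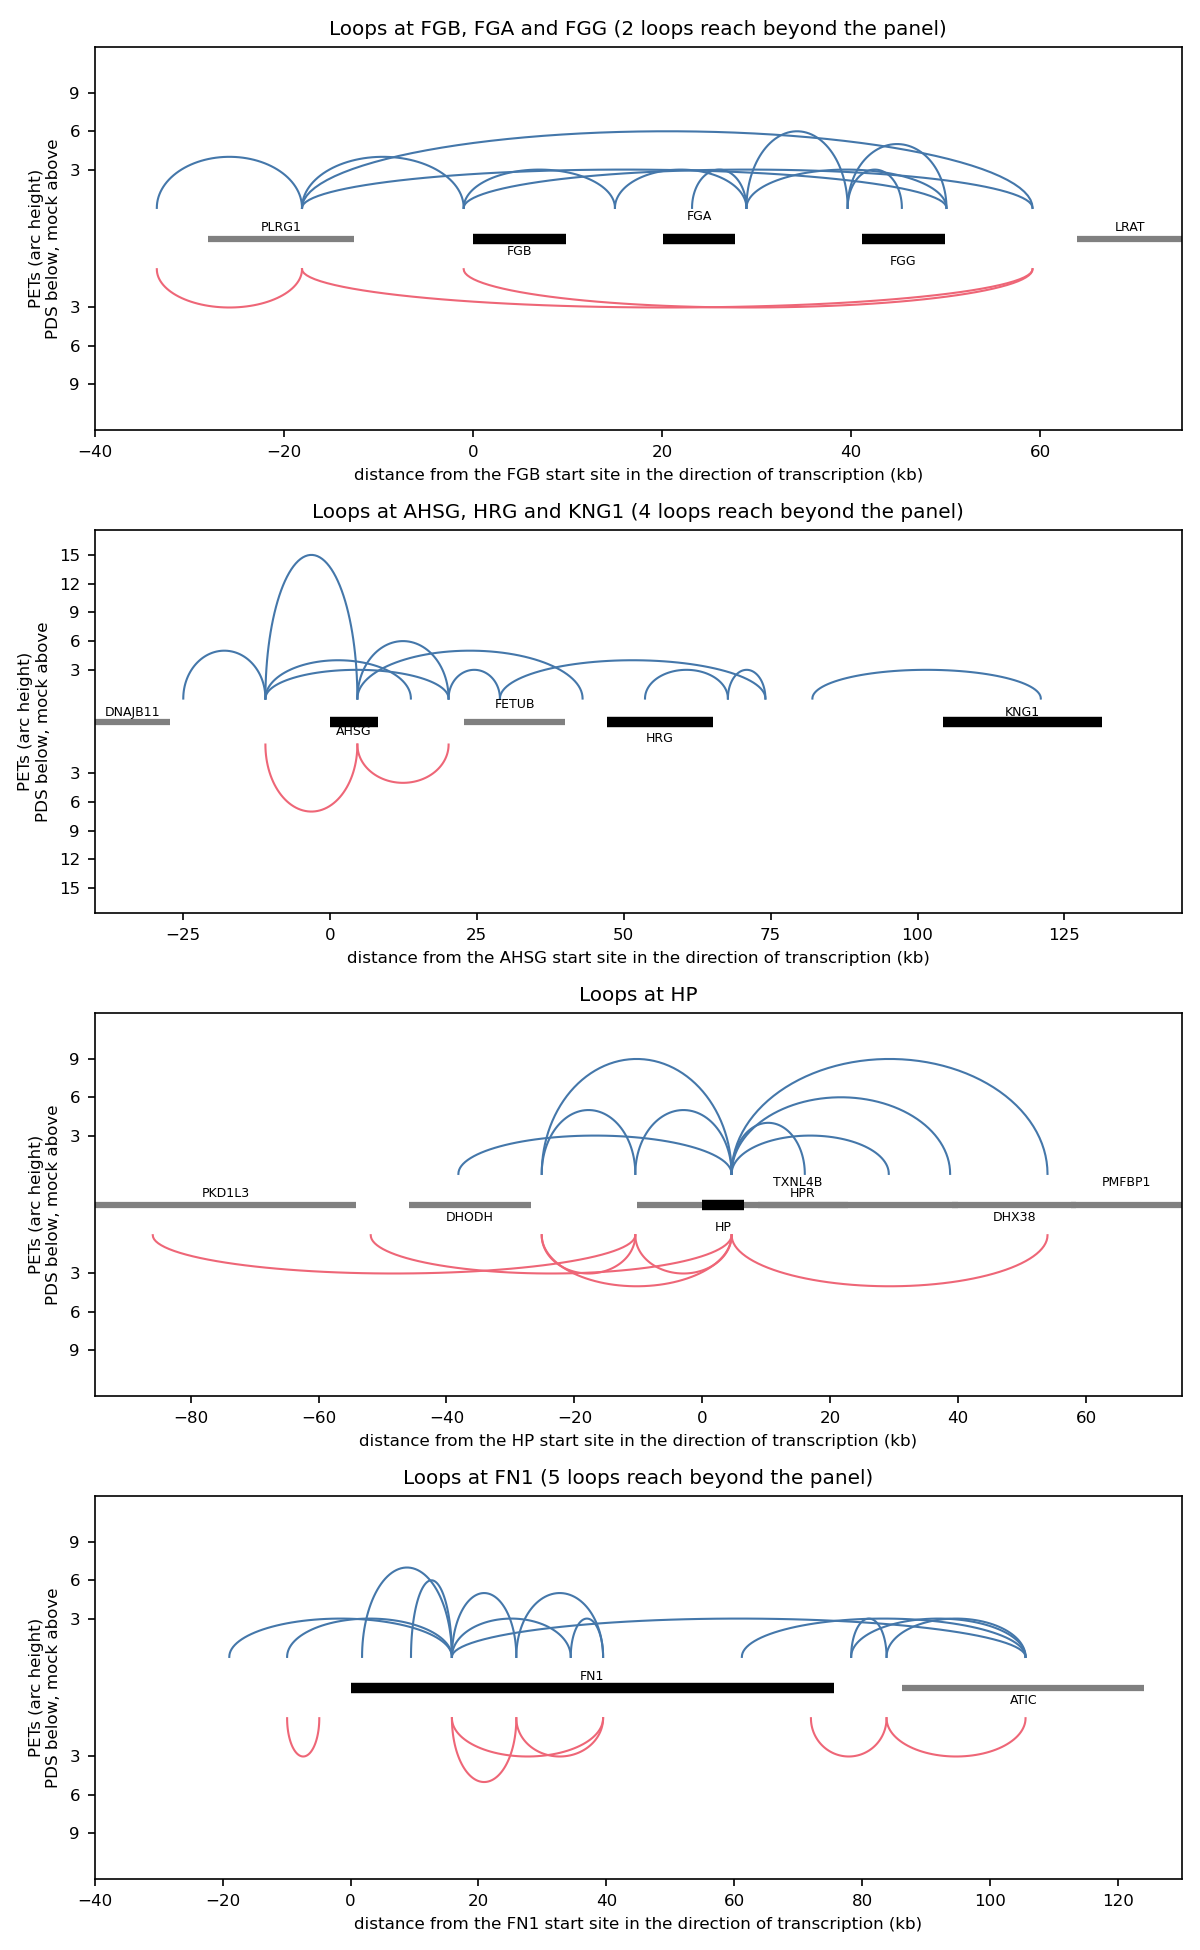
Loops at the fibrinogen, AHSG-HRG-KNG1, HP and FN1 loci by distance from the start site of the first-named gene (horizontal axis, kb), as arcs between anchor midpoints whose height is the number of PETs, mock above (blue) and PDS below (red). Black bars are genes of the 44 and grey bars other coding genes, and the tallest arc, at AHSG, had 15 mock and 7 PDS PETs.

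The coagulation factor genes held 25 mock and 6 PDS loops (ratio 0.24, 0.101 to 0.569), and 6 of the 8 genes had a mock loop. F5, which encodes the cofactor of factor Xa, had 9 loops in mock (29 PETs) and 2 in PDS (7 PETs). Of these a loop of 10.2 kb inside the gene was in both lists with 3 PETs each, and the strongest mock loops, at the start site, had 4. The anchor at the F5 start site is also at a start site of SELP. A PDS loop of 37.3 kb from SLC19A2 to F5 had 4 PETs and was not in the mock list. F7 and F10, neighbours that encode factors VII and X, shared the strongest loop of the group, which had 8 mock PETs over 17.5 kb and was not in the PDS list. Its larger anchor covers start sites of both genes and its other anchor those of F10, so the loop may lie within F10. In the PDS list that anchor had 1 loop, of 3 PETs over 99.5 kb to CUL4A. F12, the gene of factor XII, had 4 loops in mock (16 PETs) and 2 in PDS (6 PETs), none of them on the gene itself. Its loop between the promoters of GRK6 and PRR7 (17.3 kb) had 6 and 3 PETs. F2, which encodes prothrombin, had 3 mock loops of 3 PETs each and 1 PDS loop of 3 PETs to CKAP5, 19.6 kb away. F13B had 2 mock loops with 6 PETs and no PDS loop.

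The genes of anticoagulants and of fibrinolysis held 22 mock and 5 PDS loops (ratio 0.227, 0.0891 to 0.58). PROC, which encodes protein C, had 6 loops in mock (24 PETs) and 2 in PDS (6 PETs). Its start-site anchors were joined over 9.95 kb by 5 mock PETs, with no PDS loop. A loop of 6.91 kb in the flank, in the noncoding gene MAP3K2-DT, had 6 and 3 PETs. PROS1, for the cofactor protein S, had 7 loops in mock (24 PETs) and 1 in PDS (4 PETs). SERPINF2, for the plasmin inhibitor alpha-2-antiplasmin, had 5 in mock (20 PETs) and 1 in PDS (3 PETs). Its strongest mock loop joined it to the promoter of SERPINF1 over 23 kb with 6 PETs. PLG, the plasminogen gene, had 2 mock loops with 9 PETs and SERPIND1, for heparin cofactor II, had 2 with 6, and neither had a PDS loop. SERPINC1, the antithrombin gene, had no mock loop and 1 PDS loop of 3 PETs, which ran 66.8 kb from ZBTB37 to RC3H1 and did not touch the gene.

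The strongest loop of all was at AHSG (chr3:186613060-186621318), which encodes fetuin-A, a carrier of calcium phosphate in plasma. It had 15 mock and 7 PDS PETs over 15.6 kb, from the start-site anchor to an upstream anchor inside an unnamed gene model (ENSG00000283149). AHSG had 10 loops in mock (51 PETs) and 2 in PDS (11 PETs), and both PDS loops were in both lists. The other joined AHSG to the promoter of FETUB, which encodes the related fetuin-B, over 15.5 kb with 6 and 4 PETs. The loop from the start-site anchor of AHSG to that of HRG, with midpoints 38.3 kb apart, had 5 mock PETs and was not in the PDS list. HRG, for histidine-rich glycoprotein, had 4 mock loops with 15 PETs and KNG1, for the bradykinin precursor kininogen, had 2 with 6, and neither had a PDS loop. VTN, for vitronectin, had 1 mock loop of 3 PETs in its flank. No predicted G4 was found in the start-site anchor of AHSG, but the upstream anchor of its strongest loop held a predicted G4.

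The 11 complement genes held 56 loops in mock (212 PETs) and 10 in PDS (36 PETs), a loop ratio of 0.179 (0.0922 to 0.346), and all 11 had a mock loop. C3, the component on which the activation routes meet, had 8 loops in mock (32 PETs) and 3 in PDS (9 PETs). A pair of its start-site anchors 10.5 kb apart had 7 and 3 PETs, and a loop at TNFSF14 (13.7 kb) had 4 and 3. A PDS loop of 193 kb from C3 to the TUBB4A promoter had 3 PETs. C5, which gives rise to the membrane attack complex, had 10 loops in mock (40 PETs) and 1 in PDS (4 PETs). That PDS loop lay at CNTRL next to C5 (70.8 kb) and had 3 mock PETs. The other strong loops at CNTRL, of 6 PETs each, and the strongest at the C5 start sites, of 5 PETs over 8.68 kb, were not in the PDS list. C8A and C8B, for subunits of C8, lie side by side and share loops. C8A had 12 loops in mock (42 PETs) and 2 in PDS (7 PETs), and C8B had 3 (9 PETs) and 2 (6 PETs). The loop from the C8A start site to upstream sequence (13 kb) had 6 and 4 PETs. C6 had 1 loop of 4 PETs in each list, over 8.02 kb in mock and 11.9 kb in PDS, and C9 had 1 mock loop of 3 PETs. Both are further components of the pore.

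MBL2, for the mannose-binding lectin that starts the lectin pathway, had loops at its start sites in the mock list alone (chr10:52765380-52772784). It had 6 loops in mock (31 PETs) and 1 in PDS (6 PETs). The start-site anchor was joined to an anchor in the noncoding gene LNCAROD, 24.5 kb away, by 11 mock PETs, the most of any loop here that was not in the PDS list. Neighbouring start-site anchors of MBL2, 8.85 kb apart, had 7 mock PETs and no PDS loop. They lie on either side of the start of the gene, so they need not hold different start sites. A loop of 10.4 kb within LNCAROD, which shares the anchor of the 11-PET loop, had 3 mock and 6 PDS PETs. That difference has no replicate check. CFB, for the protease of the alternative pathway, had 9 loops in mock (29 PETs) and 1 in PDS (3 PETs). Its start site was joined to the promoter of C2, the classical pathway counterpart, over 26.2 kb with 5 mock PETs, and the PDS loop ran 42.8 kb between another CFB start-site anchor and the inside of C2. The regulators C4BPA (3 mock loops, 12 PETs), CFI (3 loops, 10 PETs) and SERPING1 (2 loops, 6 PETs) had no PDS loop.

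HP, for the haemoglobin scavenger haptoglobin (chr16:72054505-72061055), had the most PDS PETs of the 44 genes together with FN1. It had 8 loops in mock (44 PETs) and 6 in PDS (20 PETs), a PET ratio of 0.455, and 4 of the 8 mock loops were in both lists. Its start-site anchor, which also covers HPR and part of TXNL4B, was joined to DHODH (29.7 kb) by 9 and 4 PETs and to the DHX38 promoter (49.4 kb) by 9 and 4. It was joined to an anchor inside TXNL4B (15.1 kb) by 5 and 3, and DHODH and TXNL4B (14.6 kb) had 5 and 3. A loop to the shared promoter of DHX38 and TXNL4B (34.2 kb) had 6 mock PETs and was not in the PDS list. Of the 31-base sequences of the HP anchor, 31.9% have a further copy in the reference genome, against a median of 8.37% over the 269 anchors at these loci. Some anchors of other loci had higher shares. Examples are 92.8% in an anchor upstream of TF, 46.5% in the flank of F12, 44.9% inside PROS1 and 39.3% at the SERPINF2 start site. HP and HPR are near-identical copies, and how reads were split between them is not known here.

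TF, for the iron carrier transferrin (chr3:133746040-133796641), had the most mock PETs of any gene without a PDS loop, 41 in 10 loops. Its start-site anchors were joined to an upstream anchor over 43.3 kb with 6 PETs and over 60.1 kb with 5. They were joined to each other over 7.71 kb with 6, and to the promoter of SRPRB over 61.3 kb with 4. CP, for the copper oxidase ceruloplasmin, had 10 mock loops with 33 PETs, all at its start sites and of 3 to 4 PETs, and 1 PDS loop with 3. TTR, for the thyroxine and retinol carrier transthyretin, had 6 loops in mock (20 PETs) and 1 in PDS (4 PETs). AMBP, the precursor of alpha-1-microglobulin and bikunin, had 6 with 19 and no PDS loop. HPX, for the haem carrier hemopexin, and ORM1, for an acute phase glycoprotein, had 1 mock loop each, of 4 and 3 PETs. The group held 42 mock and 8 PDS loops (ratio 0.19, 0.091 to 0.399), 6 of the 8 at HP.

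The heavy chains of the inter-alpha-trypsin inhibitors, which bind hyaluronan, had the lowest ratio of the role groups. ITIH1, ITIH2, ITIH3 and ITIH4 together held 15 loops in mock (54 PETs) and 1 in PDS (3 PETs), a loop ratio of 0.0667 (0.0112 to 0.395). The interval rests on 1 PDS loop and spans the ratio of the whole lists. ITIH1, ITIH3 and ITIH4 are neighbours that share loops, and together they held 7 mock loops (26 PETs). By gene, ITIH1 and ITIH3 each had these 7 mock loops with 26 PETs, and ITIH4 had 4 of them with 17. Start-site anchors of ITIH3 and ITIH4 (13.5 kb) were joined by 5 mock PETs. Another loop of 5 mock PETs (11.5 kb) joined an anchor with start sites of both ITIH1 and ITIH3 to an anchor with start sites of ITIH3. The only PDS loop, of 3 PETs over 7.47 kb, joined the promoters of NEK4 and ITIH1. ITIH2, which lies on another chromosome, had 8 mock loops with 28 PETs, the strongest of 6 PETs over 6.09 kb at its start site, and no PDS loop.

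By position, 115 of the 208 mock loops (55.3%, 48.5 to 61.9) and 23 of the 41 PDS loops (56.1%, 41.0 to 70.1) had an anchor within 1 kb of a start site of the 44 genes. A start-site loop was present at 34 genes in mock (77.3%, against 60% of all coding genes) and at 16 in PDS (36.4% against 28.8%). Loops with start sites of different genes of the 44 at their anchors numbered 7 in mock, with 33 PETs, and 0 in PDS. In 2 of them, at F7 with F10 and at ITIH1 with ITIH3, 1 gene has start sites in both anchors, so the loop may lie within that gene. The other 5, with 20 PETs, joined FGA with FGG, AHSG with HRG, ITIH1 with ITIH4, and ITIH3 with ITIH4 in a pair of loops. The 7 are 6.09% of the 115 start-site loops in mock (2.98 to 12). In PDS 0 of 23 start-site loops allows a share of up to 13% (3 counts of 23, counting error only), which includes the mock share. Promoters of coding genes outside the 44 were the partner in 22 mock loops (19.1%, 13 to 27.3) and 7 PDS loops (30.4%, 15.6 to 50.9). Sequence between coding genes was the partner in 24 (20.9%, 14.4 to 29.2) and 2 (8.7%, 2.42 to 26.8), and these intervals overlap too. The median distance was 23 kb in mock and 19.6 kb in PDS, against 17.4 and 17.2 kb over the whole lists.

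**Figure D4:**
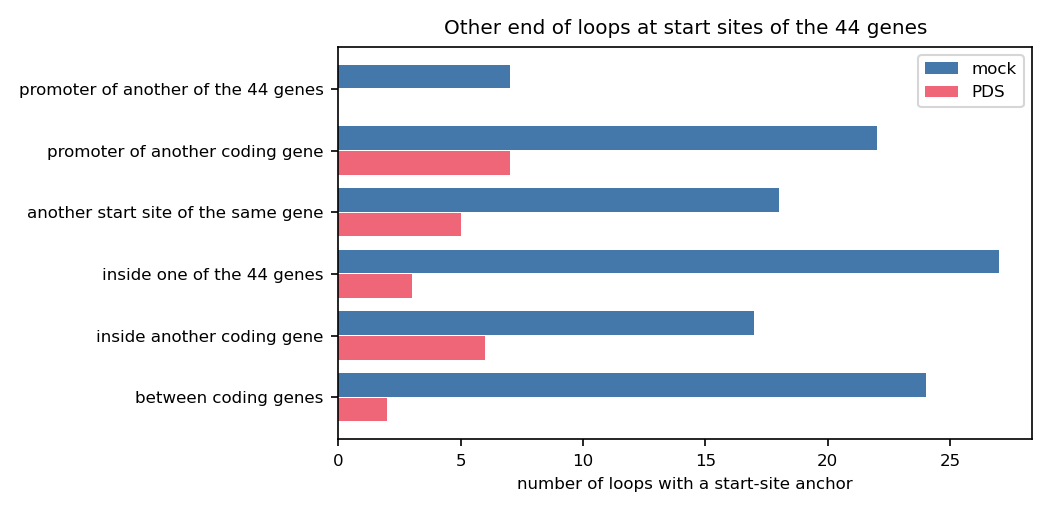
Number of loops with an anchor at a start site of the 44 genes (horizontal axis) by what the other anchor holds, in the mock list (blue) and the PDS list (red), 1 combined list per condition. Loops with start sites of different genes of the 44 at their anchors numbered 7 in mock, 2 of which may lie within 1 gene, and 0 in PDS. Loops shown with another start site of the same gene can have anchors that share a start site.

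The 21 loops found in the PDS list alone had 3 PETs (17 loops) or 4 PETs (4 loops). Those of 4 PETs were at F5, PROS1, C6 and TTR. A start site of the 44 genes was in 13 of the 21. In the mock list alone, 27 loops had at least 5 PETs and 4 had at least 7, the latter at MBL2, F7 with F10, and FN1. Of the 40 mock loops here with at least 5 PETs, 13 (32.5%, 20.1 to 48.0) were also in the PDS list. Over the whole lists 26.8% of such loops were, a value within that interval.

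A predicted G4 was present in 40 of the 69 anchors at start sites of the 44 genes (58.0%, 46.2 to 68.9), in 66.6% of all anchors at coding promoters and in 47.3% of all anchors, with median widths of 6231, 6622 and 5822 bp. Of the loops at the 44 loci, 148 of 208 in mock (71.2%, 64.7 to 76.9) and 32 of 41 in PDS (78.0%, 63.3 to 88.0) had a motif in at least 1 anchor, against 75.2% and 75.5% of all loops. The share was 85.0% of the 20 loops in both lists (64 to 94.8) and 69.7% of the 188 in the mock list alone (62.8 to 75.8), and these intervals overlap. The 3 loops in both lists without a motif were at HP (5 and 3 PETs), FN1 (5 and 5) and AHSG with FETUB (6 and 4). The motif describes the reference sequence, and whether a G4 forms there was not measured in these files.

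HepG2 cells are known to carry extra copies of several chromosomes or parts of them. The 7 genes on chromosomes 2, 6, 14, 16, 17 and 20, a grouping set with results of these data known, HP and FN1 among them, held 49 mock and 16 PDS loops (ratio 0.327, 0.187 to 0.57). The other 37 held 159 and 25 (0.157, 0.103 to 0.239). The whole lists split the same way gave 0.319 (0.312 to 0.326) and 0.238 (0.232 to 0.244). Set against the same chromosomes of the whole lists, the loop ratio of the 7 genes was not lower, and the interval of the other 37 includes the whole-list value. For PETs, the 37 genes gave 0.15 (0.12 to 0.187) and the whole lists 0.219 (0.216 to 0.222), with intervals that take each PET as independent, which PETs of the same loop are not. The part of copy number in these ratios was not tested.

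Among 67 other genes of coagulation, complement and plasma proteins, 49 had a mock loop (73.1%) and 29 a PDS loop (43.3%), with 251 and 48 loops (ratio 0.191, 0.141 to 0.26). Over all coding genes these shares were higher, at 77.6% and 48.2%. Of the 35 with at least 10 mock PETs, 32 were at least 2-fold lower in the PDS list, with a median ratio of 0.115, and none of the 6 with at least 10 PDS PETs was at least 2-fold higher. With the same minimums, 92.7% of all coding genes were lower, with a median ratio of 0.193, and 0.746% were higher. Some of these genes, such as C2 and FETUB, share loops with the 44. The most mock PETs were at TFPI, an inhibitor of tissue factor (74 mock and 3 PDS PETs), C2 (65 and 6), C1S, a protease of the classical pathway (62 and 11), VWF, the platelet-binding von Willebrand factor (62 and 3), and PROCR, the protein C receptor (41 and 22). There were 2 with more PDS than mock PETs, F13A1, for the A subunit of factor XIII (10 and 12), and PLAUR, the urokinase receptor (9 and 10).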

How the data were processed

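HiChIP-seq for POLR2A was done on 2 mock and 2 PDS libraries of HepG2 cells. The submitters' processing notes name HiC-Pro 3.1.0 and GRCh38, and chromatin was cut with MboI. The deposited lists give, for each loop, whole-number counts of PETs with no scaling, at least 3 per loop, with the replicates of a condition combined. The tool that set the anchors and the way replicates were combined are not given in the sources used here.

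Loops were assigned to genes by an overlap of at least 1 bp with the gene body and 10 kb on either side (GENCODE 44), and a loop touching several genes was counted once in sums. Loops of both lists were matched when both anchors had identical coordinates. A start-site anchor lies on or within 1 kb of the start of any annotated transcript. Neighbouring anchors can therefore share the same start site. Ratios have 95% intervals derived from Wilson intervals of the share in the PDS list. A gene was called lower or higher at 2-fold, with at least 10 PETs in the mock or PDS list, respectively. Values are given for the 15 genes with most mock PETs, genes with a loop in both lists, with at least as many PDS as mock loops, or with no loop, and other genes of the 44 are named by their counts. The genes and lists were chosen with earlier results of these data known. The counting steps were tested on simulated data. Some marker genes are not reported here. Alternatives were other windows, PET minimums, distances, overlaps and motif definitions. Computations used Python 3.11.15 with scipy 1.17.1, pandas 2.3.3, numpy 2.4.6, matplotlib 3.10.9 and pysam 0.24.0.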

Additional observations from a re-analysis of the deposited data

How the results depend on the processing

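The loop ratio at the 44 loci ran from 0.075 to 0.209 over the alternatives. It was below 1 throughout, but so was that of the whole lists (0.283), so this is not particular to these genes. Of 28 alternative values, 18 stayed within the counting interval or, for counts of genes and loops, close to the main count. With at least 5 PETs the loop ratio was 0.075 and the PET ratio 0.0726, 25 genes had a mock loop and 3 a PDS loop, and 2 loops were in both lists. The whole-list ratio at that minimum is not given here. The 0.283 of the whole lists is for at least 3 PETs, and 13358 of their 18778 PDS loops had 3, so 0.075 cannot be set against it. With PETs divided by the list total the PET ratio was 0.681. Matching by overlap of anchors extended by 5 kb, in place of identical coordinates, gave 60 loops in both lists. That is more than the 41 PDS loops since a mock loop counts with any PDS loop it meets. With start sites widened to 2500 bp, 62.5% of mock loops were at a start site. The share of start-site anchors with a predicted G4 was 75.4% with spacers of 1 to 12 bases and 100% with runs of at least 2 G. Leaving out the genes on chromosomes 2, 6, 14, 16, 17 and 20, chosen after seeing the data, gave ratios of 0.157 for loops and 0.15 for PETs. Except where a stricter or wider definition changes the count by construction, the cause was not tested. Leaving out a replicate was not run, since the lists combine them. No paired analysis was possible because the replicates of a condition are combined in 1 list. Single loops of 3 PETs are known with little precision.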
